A study of Mus musculus with 8 samples.

Results

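The transcriptome described here is that of the normal mouse ventricle at embryonic day 9.5, as measured in 4 wild-type (WT) samples of a series of 8. The members are the 4 samples labelled WT. Their expected counts were turned into counts per 1000000 counts (CPM) within each library, and genes were ranked by mean CPM. The series profiled polyadenylated RNA of heart ventricles by RNA-seq in single reads of 60 bases. Its other samples carry *Nrg-1flox;Tie2-Cre*, in which Cre made in endothelial cells, endocardium included, acts on a floxed *Nrg1* allele, and no value from them was used. The labels give the WT samples no strain, no number of embryos, and no word on pooling, litter or batch, nor do they say whether WT embryos carried a floxed allele or Cre alone. Because separate embryos are not stated, the spread between the 4 samples may be partly technical.

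At this stage the ventricle is a beating tube wall of cardiomyocytes lined by endocardium, and muscle ridges called trabeculae have begun to grow into its lumen, while the outer compact layer keeps dividing. Embryonic cardiomyocytes already build sarcomeres, the repeating units of actin and myosin filaments that contract, and many sarcomere proteins are encoded by gene families whose members are exchanged as the heart matures. The chamber is filled with primitive red cells from the yolk sac, the epicardium is only starting to cover the outer surface, and endocardial cells make the neuregulin that signals to *Erbb2* and *Erbb4* on the muscle.

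Cardiac muscle was checked with 6 marker genes, all of which were detected in every sample. Atrial muscle expresses such genes too, so they do not tell ventricle from atrium. *Myh7*, the beta heavy chain of cardiac myosin, read 9124, 9832, 8144 and 8198 CPM in WT 1 to WT 4. *Actc1*, cardiac alpha-actin, read 8301, 8370.0, 8314 and 8395 CPM. *Myh6*, the alpha heavy chain, read 7146, 7155, 7045 and 7055 CPM. These genes held ranks 1, 2 and 4 of all genes, so that contractile transcripts led the library in each sample. *Tnnt2*, cardiac troponin T, read 2414, 2337, 2437 and 2478 CPM. *Nppa*, the atrial natriuretic peptide made by embryonic chamber and trabecular muscle, read 1021, 1133, 919.6 and 878.9 CPM. *Bmp10*, a trabecular growth factor, read 120.0, 119.7, 122.5 and 96.7 CPM, at rank 1859 in CPM. *Tnnt2* and *Actc1* were steady between samples, with coefficients of variation of 2.45% and 0.538%. *Nppa* and *Bmp10* varied by 11.5% and 10.5%, with WT 4 lowest for both.

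Libraries held between 11852506 and 14360427 expected counts, so that 1 count was worth 0.0696 to 0.0844 CPM and 3 counts, the limit that a count of 0 allows in a library, 0.209 to 0.253 CPM. These limits cover counting error only. CPM is a share of reads and grows with transcript length, so that an order of genes in CPM is an order of read shares. Levels per length are given as transcripts per 1000000 (TPM), the count per base of the gene's exons, scaled to the same total in every sample.

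The 2 myosin heavy chains lie next to each other on chromosome 14, and their transcripts and intronic microRNAs are shown here because the comparison of *Myh6* with *Myh7* turns on how alike they are. *Myh7* spans chr14:54970684-54994626 and *Myh6* chr14:54941921-54966927, both on the minus strand of GRCm38. Each contains a microRNA hairpin, *Mir208b* in *Myh7* and *Mir208a* in *Myh6*. The mature 3p arms, taken from RefSeq, are printed with the seed (bases 2 to 8) in capitals and lie at chr14:54975710-54975731 and chr14:54949072-54949093, both on the minus strand.
miR-208b-3p, within *Myh7*: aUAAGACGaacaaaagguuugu
miR-208a-3p, within *Myh6*: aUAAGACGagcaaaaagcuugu
Both carry the seed UAAGACG. The hairpin genes themselves were listed at 0 counts in all 4 samples of this poly(A) library, which does not capture mature microRNAs.

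The coding sequences of the 2 heavy chains shared 17 runs of at least 60 bases, the length of a read, and the longest shared run was 245 bases. A window of 60 bases that is identical in both, in exon 30 of *Myh6* (chr14:54948666-54948725, minus strand) and exon 32 of *Myh7* (chr14:54975288-54975347, minus strand), reads as follows.
shared window of *Myh6* and *Myh7*: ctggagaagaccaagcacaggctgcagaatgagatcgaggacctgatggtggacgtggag
Of all 60-base windows, 19.1% of *Myh6* and 18.7% of *Myh7* occurred in the other gene, and RSEM divides reads from such windows by estimate. The remaining windows of each gene were its own, and no window of *Actc1* occurred in another gene.

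Transcription was spread over many genes with a steep top. Of 53465 rows, 13817 had a mean of at least 1 CPM, and 12634 of these were protein coding, 335 pseudogenes and 261 lincRNAs. The 86 genes at 1000 CPM or more took 18.99% ± 0.215 of all counts (SD, n = 4). The 2118 genes between 100 and 1000 CPM took 49.0% ± 0.130. The middle of the range thus held more of the RNA than its top. The 7552 genes from 10 to 100 CPM took 30.1% ± 0.105, and 4061 genes from 1 to 10 CPM took 1.65% ± 0.0196. A further 12378 genes had counts but stayed under 1 CPM, and 27270 rows had 0 counts in every sample. The median detected gene stood at 26.6 CPM and 17.2 TPM. Detection differed little between samples, with 13119 genes at 1 CPM or more in each of the 4.

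No small set of genes filled the libraries. The 10 leading genes took 6.23%, 6.33%, 5.87% and 5.91% of counts in WT 1 to WT 4. The 100 leading genes took 20.4% ± 0.218 and the 1000 leading genes 51.9% ± 0.160. Counts reached 25%, 50%, 75% and 90% of the library with 157, 902, 3007 and 5890 genes. Mitochondrially encoded genes took 3.01%, 3.03%, 2.54% and 2.79%, cytosolic ribosomal protein genes 4.49% ± 0.128, and hemoglobin genes 0.722% ± 0.0609.

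**Figure D1:**
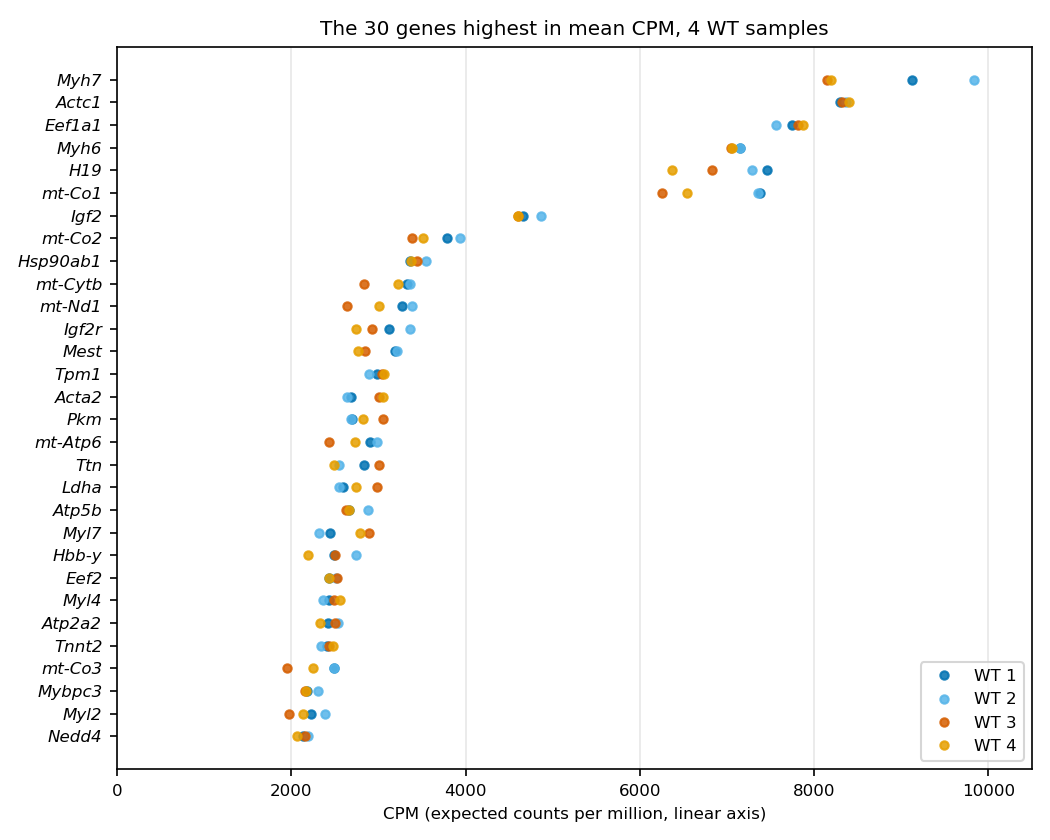
CPM on a linear axis of the 30 genes highest in mean CPM, with 1 point for each of the 4 WT samples. *Myh7*, *Actc1*, *Eef1a1*, *Myh6*, *H19* and *mt-Co1* stand apart above 6000 CPM, and *Actc1* and *Myh6* show hardly any spread while *Myh7* runs from 8144 to 9832 CPM.

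The 30 leading genes fell into few classes. Genes of the cardiomyocyte sarcomere list made up 10 of them and took 4.19% of all counts. Mitochondrially encoded genes of the respiratory chain made up 6 and took 2.19%. Imprinted genes made up 4, glycolytic enzymes 2, and hemoglobin 1, leaving 7 others. *Eef1a1*, the elongation factor that brings aminoacyl-tRNA to the ribosome, was at rank 3 with 7747, 7563, 7817 and 7874 CPM. *H19*, an imprinted noncoding RNA, read 7457, 7289, 6827 and 6366 CPM, falling in rank only behind muscle genes and *Eef1a1*. *Igf2*, its neighbour on chromosome 7 and a fetal growth factor, read 4664, 4871, 4605 and 4601 CPM. The others of the class were *Hsp90ab1* (a chaperone), *Acta2* (smooth muscle actin), *Atp5b* (a subunit of the mitochondrial ATP synthase), *Eef2* (an elongation factor), *Atp2a2* (the calcium pump of the sarcoplasmic reticulum) and *Nedd4* (a ubiquitin ligase).

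Ranked per length, the order changed. *mt-Co2*, a subunit of cytochrome oxidase, at 15548 ± 1038 TPM, and *Actc1*, at 15018 ± 95.2 TPM, were highest and not separated beyond their spread. All 60-base windows of *mt-Co2* also occur in other annotated genes. *Myl7*, the regulatory light chain of atrial and embryonic myosin, moved from rank 21 in CPM to 4 in TPM, at 12897 ± 1383 TPM. *Hbb-y*, an embryonic beta-type globin, moved from 22 to 6, at 11420.4 ± 1062 TPM. *Ttn*, the giant spring protein of the sarcomere, went the other way, from rank 18 at 2720 ± 242 CPM to rank 2310 at 67.8 ± 6.30 TPM, since its exons cover 116825 bases. The rank of a gene thus depended strongly on the length of its exons.

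All 24 genes of the sarcomere list were at 10 CPM or more, and 13 were above 1000 CPM. Together they summed to 51559, 52224.5, 50797 and 50672 CPM, or 5.13% ± 0.0723 of counts. Their median was 1155 CPM against 26.6 CPM over all detected genes. None of the 24 differed more than 2-fold between samples, and over all 9756 genes with a mean of at least 10 CPM 0.584% did, so a count of 0 is near that share. In bulk RNA, fewer cells of a type and less RNA per cell cannot be told apart, so these are shares of the tissue's RNA. Among filament genes, *Tpm1*, a tropomyosin, read 2988, 2895, 3041 and 3061 CPM. *Mybpc3*, cardiac myosin-binding protein C, read 2178, 2308, 2156 and 2171 CPM, with WT 2 apart from the rest. *Tnnc1*, which binds the calcium that starts contraction, had a mean of 1093 ± 23.7 CPM. At the lower end *Tcap*, the titin cap of the Z-disc, stood at 44.6 ± 3.44 CPM, the only member under 100 CPM.

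Promoter sequence was read for 7 genes, of which 3 are shown, *Actc1* and *Myl7* because they hold a CArG box and *Hbb-y* for blood. No CArG box was found in the windows of *Myh7*, *Myh6*, *Nppa* and *Myl2*. The windows come from RefSeq on GRCm38.p6 and end at the base before the RefSeq start. Capitals mark matches, on either strand, to a CArG box, to CATTCC (named MCAT), to GATA motifs, to CCAAT and to the core promoter element TATAAA. The GATA motif was searched as AGATAA or TGATAA, each also with G as its last letter.
*Actc1*, chr2:114052876-114053025, minus strand: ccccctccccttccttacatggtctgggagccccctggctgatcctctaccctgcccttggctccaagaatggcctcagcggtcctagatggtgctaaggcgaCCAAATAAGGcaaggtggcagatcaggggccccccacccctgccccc
*Myl7*, chr11:5898783-5898932, minus strand: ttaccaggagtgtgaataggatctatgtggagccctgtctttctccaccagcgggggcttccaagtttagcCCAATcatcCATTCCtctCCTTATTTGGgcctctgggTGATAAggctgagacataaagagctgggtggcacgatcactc
*Hbb-y*, chr7:103853208-103853457, minus strand: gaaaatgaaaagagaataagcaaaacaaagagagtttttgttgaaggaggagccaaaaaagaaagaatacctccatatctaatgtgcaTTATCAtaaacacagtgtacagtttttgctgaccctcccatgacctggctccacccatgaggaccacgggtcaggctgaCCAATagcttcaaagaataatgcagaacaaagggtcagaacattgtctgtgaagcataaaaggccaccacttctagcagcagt
*Actc1* had a CArG box, the letters bound by serum response factor, from 47 to 38 bases before the start. *Myl7* had 4 motifs that did not overlap, a CCAAT box at 79 to 75, MCAT at 70 to 65, a CArG box at 61 to 52 and a GATA motif at 42 to 37 bases before the start. *Hbb-y* had a GATA motif at 162 to 157 and a CCAAT box at 83 to 79 bases before the start. Over 250 bases, a CArG box was found in 5 of 21 sarcomere promoters with a sequence and in 1.47% of 32851 promoters, and MCAT in 7 of 21 and 12.6%. A GATA motif was found in 5 of 6 hemoglobin promoters, 6 of 21 sarcomere promoters and 26.5% of all. A CCAAT box was found in 5 of 6, 7 of 21 and 33.8%. A match is only a run of letters.

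Paralog choice was described in 41 families by the log2 ratio of levels per length, within each sample, between members next to each other in rank. The share of a family that a member took is its share of the family's summed TPM. Of 80 such pairs, 77 had a ratio, and the order was the same in all 4 samples for 70. In 7 the order differed between samples, and 3 had the lower member at 0 in some sample. With 4 samples the two-sided exact sign permutation test has a smallest p of 0.13 after rounding, so no order is called significant. For 9 pairs the sign of the mean turned when the transcript with the longest coding sequence replaced the union of exons as the length. The fold moved by over 1.5 times for 21 pairs with that length and for 37 with no length, or 40 of the 77 with either, so family shares and folds hold for union exon length.

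The cardiac myosin heavy chains were present at nearly equal levels. *Myh6* stood at 3074 ± 22.7 TPM and *Myh7* at 2982 ± 268 TPM, so that *Myh6* made up 50.8% ± 2.07 of the pair. The log2 ratio of *Myh6* to *Myh7* was 0.00, -0.10, 0.15 and 0.14 in WT 1 to WT 4, a mean of 0.05 ± 0.12. The order was not separated beyond the spread, and it turned to -0.28 with the coding transcript's length and to -0.31 with no length, where *Myh7* was higher. The spread came from *Myh7*, which varied by 9.16%, against 0.823% for *Myh6*.

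Among actins the cardiac form led clearly. *Actc1* exceeded *Acta2*, the smooth muscle form, by 1.96, 1.99, 1.80 and 1.79 on the log2 scale of levels per length, a mean of 3.70-fold. *Acta1*, skeletal actin, was lower again, by 1.69 ± 0.11, at 616, 660.5, 735.7 and 648.6 CPM. As shares of the 3, *Actc1* took 73.8%, *Acta2* 19.99% and *Acta1* 6.19%. RNA of all 3 muscle actins was present, in the same order in each sample.

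Among regulatory light chains *Myl7* led, by an amount that depended on the length used. *Myl7* exceeded *Myl2*, the ventricular regulatory chain, by 1.86, 1.68, 2.28 and 2.11 on the log2 scale, a mean of 1.98 ± 0.26. The difference shrank to 0.56 with the coding transcript's length and to 0.26 with none. In CPM the samples ranked differently for the 2 genes, with *Myl7* at 2445, 2322, 2890 and 2794 CPM and *Myl2* at 2224, 2388, 1972 and 2140 CPM. *Myl7* was highest in WT 3 and *Myl2* lowest there, and WT 2 was the reverse. For the essential chains, *Myl3*, the ventricular form, exceeded *Myl4*, the atrial and fetal form, by 0.51 ± 0.09 per union length, but *Myl4* was higher by the coding length (-0.66) and with no length (-0.67), so the order is not settled.

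Troponins were a mixture of embryonic and cardiac forms. *Tnni1*, slow skeletal troponin I, which the embryonic heart uses, exceeded *Tnni3*, the adult cardiac form, by 0.95 ± 0.07 on the log2 scale per length in all 4 samples, or by 1.42 with the coding transcript's length. *Tnni3* already stood at 363, 366, 361 and 356 CPM. *Tnnt2* took 89.6% ± 0.99 of the troponin T family, *Tnnt1* 8.54% and *Tnnt3* 1.84%, and the log2 ratio of *Tnnt2* to *Tnnt1* moved from 3.40 to 5.03 with the coding transcript's length. *Tnnc1* took 99.9% of troponin C. *Tpm1* took 62.7% of tropomyosins and *Tpm4* 23.9%, shares that rested on the length used, since their log2 ratio moved from 1.39 to 3.17 with the coding transcript's length. *Actn2*, the sarcomeric alpha-actinin, took 65.5% of its family, with *Actn1* and *Actn4* of other cells at 17.9% and 15.9%.

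**Figure D2:**
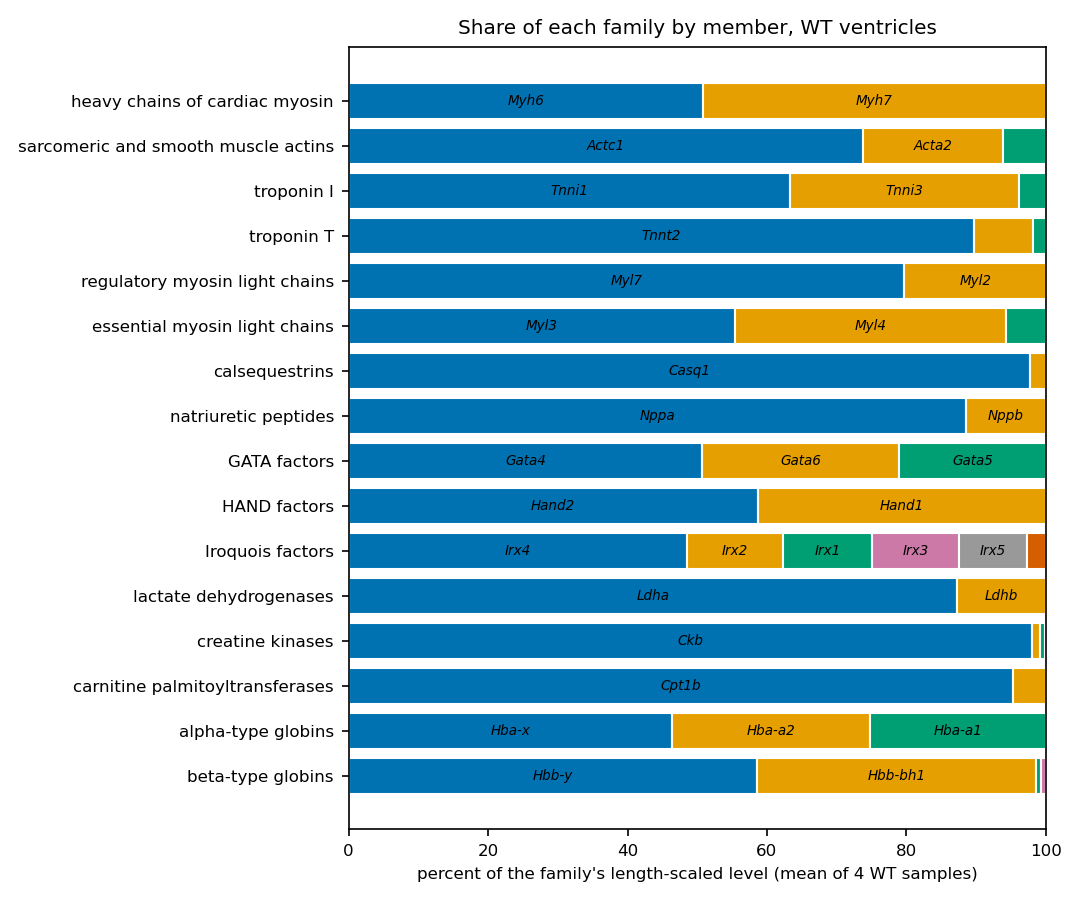
Share of each family's summed level per union exon length taken by each member, as the mean of 4 WT samples, in percent. *Myh6* and *Myh7* split their family almost evenly, while *Casq1*, *Ckb*, *Cpt1b* and *Tnnt2* each hold most of theirs; members under 9% are drawn without a name.

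In calcium handling *Atp2a2*, the SERCA pump of heart muscle, stood at 2426, 2533, 2503 and 2325 CPM, and took 98.4% of its family. *Ryr2*, the calcium release channel of the sarcoplasmic reticulum, read 507, 578, 548 and 487 CPM and took 98.5% of the ryanodine receptors. *Slc8a1*, the sodium-calcium exchanger, stood at 587 ± 35.4 CPM and *Jph2*, which holds the reticulum to the cell membrane, at 385 ± 11.88 CPM. Calsequestrins store calcium in the reticulum, and the adult heart uses mainly *Casq2*. *Casq1*, the form of fast skeletal muscle, read 329, 310, 348 and 338 CPM. *Casq2* itself, the cardiac form, read 12.8, 15.4, 8.52 and 7.73 CPM. The log2 ratio per length was 5.18, 4.82, 5.84 and 5.94, a mean of 43.5-fold, with no overlap between the genes and the widest gap in WT 4. It remained at 5.35 with the coding transcript's length.

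Among channels, *Cacna1h*, a T-type calcium channel, was the highest in CPM, at 231 ± 12.6 CPM. Per length *Kcnh2* and *Kcnj5*, which carry potassium, stood above it at 97.0 ± 3.92 and 95.1 ± 3.87 TPM against 68.9 ± 4.16 TPM. *Hcn4*, the pacemaker channel of the embryonic heart, read 112, 112, 113 and 101 CPM and took 96.1% of the HCN family, 45.3-fold above *Hcn3* per length. The connexins had no clear leader. *Gja4*, *Gja5*, *Gjc1* and *Gja1* took 28.3%, 27.6%, 25.1% and 18.97% of their summed level per length. With the coding transcript's length this order was reversed, from *Gja1* at 75.5 ± 11.8 TPM to *Gja4* at 34.6 ± 2.01 TPM. *Gja1* was also the highest with no length, at 119 ± 18.3 CPM. *Gja5*, connexin 40 of trabecular muscle and endothelium, read 105, 118, 87.6 and 77.9 CPM, and its order against *Gja4* differed between samples and turned to -1.73 with no length.

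The cardiac transcription factors were all present. Of 16 listed, 15 were at 10 CPM or more and 12 at 100 CPM or more, with a median of 151 CPM and a summed share of 0.319% ± 0.00532. *Smyd1*, a muscle histone methyltransferase grouped with them, read 630, 674, 649 and 649 CPM. *Tbx20*, a T-box factor of chamber muscle, stood at 387 ± 10.4 CPM and *Tead1*, which binds MCAT motifs, at 341 ± 12.95 CPM. *Gata4* varied least among those highest in mean, at 282, 289, 289 and 290.3 CPM. Within families, *Gata4* led *Gata6* by 0.85 ± 0.03 and *Gata6* led *Gata5* by 0.42 ± 0.05 on the log2 scale per length, in all 4 samples. *Hand2* led *Hand1*, the factor of the left ventricle, by 0.51 ± 0.12, and *Tbx20* led *Tbx5* by 0.72 ± 0.11, or by 2.08 with no length. *Mef2d* took 56.1% of the MEF2 family, and *Mef2a* and *Mef2c*, at 22.4% and 21.3%, were not separated. The lead of *Mef2d* over *Mef2a* rested on the length used, since its log2 ratio was 1.33 per union length and 0.03 with no length. *Nkx2-5* took 98.7% of its pair with *Nkx2-6*.

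Iroquois factors, homeobox genes that pattern the ventricle, were all detected. *Irx4*, a ventricular factor, took 48.5% ± 1.1 of the family and led *Irx2* by 1.81 ± 0.08 on the log2 scale per length. *Irx2*, *Irx1* and *Irx3* lay together at 29.1 ± 2.08, 26.8 ± 1.32 and 26.3 ± 2.20 TPM, with neighbours in this order not the same way round in every sample. *Irx5* followed at 20.7 ± 1.69 TPM and *Irx6* at 5.70 ± 1.66 TPM. *Irx4* was above *Irx2* in every sample.

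The trabecular list, 12 genes led by *Nppa*, summed to 1623, 1725, 1491 and 1376 CPM. *Nppb*, the B-type peptide, read 118, 113, 132 and 97.6 CPM and lay 7.75-fold under *Nppa* per length, and *Nppc* was listed at 0 in all samples. The compact list, 7 genes of the outer wall, summed to 1463, 1495, 1465 and 1479 CPM, most of it from *Smyd1* and *Tbx20*, which are also in the transcription factor list. The highest sample exceeded the lowest by 1.25-fold for the trabecular sum and by 1.02-fold for the compact sum, with WT 2 highest in both. Among members at 10 CPM or more, the widest ratio was 1.53-fold in the trabecular list (*Slit2*) and 1.54-fold in the compact list (*Fzd7*). The contrast of the sums thus does not hold for every member. *Hey2*, a Notch-related repressor of compact muscle, led *Hey1* by 0.61 ± 0.29 per length on the log2 scale, and *Heyl* took 1.91% of the family. *Ccnd1* and *Mycn*, which drive proliferation, stood at 149 ± 13.1 and 97.8 ± 3.25 CPM. Cyclin D genes depended on length, since *Ccnd2* led *Ccnd3* by 1.39 per union length but not by coding length (-0.10).

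The neuregulin ligand and its receptors were both detected. *Nrg1*, the ligand, read 12.2, 9.52, 10.2 and 12.1 CPM and took 68.1% ± 3.7 of the neuregulins per length, and its log2 ratio to *Nrg2* moved from 1.65 to 3.69 with the coding transcript's length. *Erbb2*, the coreceptor without a ligand of its own, read 176, 196, 181 and 162 CPM. *Erbb4*, the neuregulin receptor of cardiomyocytes, read 75.1, 76.2, 80.7 and 68.2 CPM. Per length *Erbb2* exceeded *Erbb4* by 2.50 ± 0.08 on the log2 scale in all 4 samples, or by 1.25 with no length, and *Erbb4* exceeded *Erbb3* by 1.197 ± 0.16. *Egfr* was the lowest of the receptors at 1.67 ± 0.304 TPM. Of 18 genes of the pathway list, 16 were at 1 CPM or more, with *Spred1* and *Etv5*, an inhibitor and a target of ERK signaling, at 62.9 ± 3.41 and 50.4 ± 5.26 CPM.

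Glycolysis genes took a larger share of counts than genes of fatty acid oxidation. The 17 glycolysis genes were all above 100 CPM and summed to 18027, 17693, 20470.1 and 19254 CPM, with WT 3 highest and WT 2 lowest. The 15 genes of fatty acid oxidation summed to 1545, 1668, 1436 and 1485 CPM, where WT 2 was highest and WT 3 lowest. The lists differ in size and length, so their sums are shares of reads and not rates. *Pkm*, which makes pyruvate, read 2696, 2683, 3051 and 2819 CPM. *Ldha*, which turns it into lactate, read 2589, 2553, 2979 and 2746 CPM and exceeded *Ldhb*, the form of oxidative tissue, by 2.79 ± 0.24 on the log2 scale per length, or by 3.39 with the coding transcript's length. *Slc2a1*, the glucose transporter of the embryo, took 92.5% of its family and *Slc2a4*, the insulin-regulated one, 1.29%.

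Isoforms of muscle metabolism split by gene. *Ckb*, the brain form of creatine kinase, took 98.0% of its family and its log2 ratio to *Ckmt2* was 6.37 per union length and 7.34 with the coding transcript's length. *Ckm*, the muscle form, was at 2.43 ± 0.358 CPM. *Cpt1b*, the muscle gate for fatty acids into mitochondria, was already 20.7-fold above *Cpt1a* per length, at 187, 212, 181 and 185 CPM. *Slc25a4*, the heart and muscle carrier of ADP and ATP, led *Slc25a5* by 0.68 ± 0.03. The heart forms *Cox6a2* and *Cox7a1* took 20.2% and 30.3% of their pairs with the general forms, and *Cox8b* took 0.801%. Mature cardiomyocyte isoforms thus ranged from dominant to nearly absent in the same samples.

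Imprinted genes took 2.35% ± 0.114 of counts, more than glycolysis, and 6 of 18 were above 1000 CPM. After *H19* and *Igf2* came *Igf2r*, which clears IGF2, at 3124, 3357, 2930.3 and 2743 CPM, and *Mest* at 3192, 3209, 2844 and 2764 CPM. *H19* and *Mest* had WT 4 lowest, as did the list as a whole. The 18 cell cycle genes were all above 10 CPM and summed to 3783, 3857, 3795 and 3857 CPM, a spread of 1.02-fold. *Top2a*, which untangles replicated DNA, read 566, 569, 568 and 580 CPM, and *Mki67*, a mark of dividing cells, 459, 474, 462 and 421 CPM. The imprinted sum varied by 1.11-fold between samples.

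Endocardial RNA was present in every sample. All 20 endocardial and endothelial genes were detected, 7 of them at 100 CPM or more, and they summed to 1512, 1471, 1466 and 1419 CPM, or 0.147% ± 0.00382 of counts. *Cdh5*, the endothelial cadherin, read 173, 178, 170 and 164 CPM. *Kdr*, the VEGF receptor, read 171, 148, 165 and 153 CPM, and *Eng*, a TGF-beta coreceptor, 156, 157, 155 and 155 CPM. *Npr3*, found on the endocardium, stood at 134 ± 11.3 CPM.

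The cushion list, for the mesenchyme that will form valves, summed to 1544, 1479, 1482 and 1383 CPM, but *Vcan*, a matrix proteoglycan also made by muscle, gave 1219, 1161, 1177 and 1081 CPM of it. Of its other 11 genes none reached 100 CPM, with *Fbln2*, *Has2* and *Tbx2* at 55.2 ± 12.2, 45.9 ± 7.16 and 45.3 ± 3.89 CPM. The extracellular matrix list took 0.911% ± 0.0414, and its highest member in CPM was *Fn1*, fibronectin, at 1869.8 ± 52.9 CPM. Per length *Sparc*, a collagen-binding protein, stood at 495 ± 36.0 TPM and *Fn1* at 466 ± 11.8 TPM, not separated beyond their spread, and *Vcan* at 233 ± 11.95 TPM.

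Epicardial and inflow genes were detected, with list medians of 29.3 and 27.0 CPM against 26.6 CPM over all detected genes. The epicardial list summed to 424, 412, 412 and 372 CPM, of which the keratins *Krt8* and *Krt19*, also found in other epithelia, gave 93.7 ± 13.4 and 69.2 ± 13.2 CPM. *Tbx18*, a factor of the proepicardium and the sinus venosus, stood at 43.7 ± 3.65 CPM. *Upk3b*, a mesothelial membrane protein, read 63.9, 61.0, 25.6 and 29.7 CPM, which is 2.49-fold from lowest to highest, with WT 1 and WT 2 above the others. The atrial and sinus venosus list summed to 417, 396, 450 and 440 CPM, where WT 3 and WT 4 were the higher. The highest members of this list were *Myl1*, a myosin light chain, at 162 ± 12.3 CPM and *Angpt1* at 106 ± 2.59 CPM. *Sln*, sarcolipin of atrial muscle, was its lowest member, at 0.157, 0.145, 0.169 and 0.139 CPM, or 2 counts in each library. *Myl7* and *Nppa*, which the embryonic ventricle shares with the atrium, were high.

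Red cell RNA was present in every sample. The primitive erythroid list summed to 6995, 8297, 7720.4 and 6959 CPM, or 0.749% ± 0.0641, and WT 2 was the highest. In level per length it took 3.01% of the transcripts, since globin transcripts are short. *Hbb-y* read 2495, 2745, 2498 and 2191 CPM and exceeded *Hbb-bh1*, the other embryonic beta-type globin, by 0.71, 0.63, 0.45 and 0.44 on the log2 scale per length. *Hba-x*, the embryonic alpha-type globin, read 1364, 1829, 1616 and 1545 CPM and exceeded *Hba-a2* by 0.71 ± 0.08. *Hba-a1* and *Hba-a2* share 65.5% and 84.7% of their 60-base windows, so their order is uncertain. The adult genes *Hbb-bt* and *Hbb-bs* took 0.756% and 0.743% of the beta-type globins. *Slc4a1*, the anion exchanger of the red cell membrane, stood at 170 ± 22.4 CPM.

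RNA of other blood cells was low. The platelet list summed to 82.0, 114, 93.6 and 93.0 CPM, with *Itgb3*, which other cells express too, giving 56.95 ± 5.11 CPM and *Pf4* 8.23 ± 2.04 CPM. In the macrophage list 5 of 10 genes reached 1 CPM, *Lyz2* stood at 15.5 ± 3.27 CPM and *Csf1r* at 2.75 ± 0.200 CPM, and *Aif1* was at 0 in all 4 samples.

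The outflow and second heart field list summed to 477, 485, 512 and 497 CPM. Its highest members, *Hand2* and *Mef2c* at 156 ± 9.32 and 153 ± 9.76 CPM, are also in the transcription factor list. *Wnt5a* and *Sema3c* followed at 74.8 ± 7.76 and 56.1 ± 1.82 CPM. Neural, paraxial, foregut and liver genes left little trace. Of 8 neural and paraxial mesoderm genes, *Meox1* alone reached 1 CPM, at 1.81 ± 0.607, and *Sox1* and *Pax3* were at 0 in all samples. Of 12 foregut and liver genes, 3 reached 1 CPM, the highest being *Hhex* at 6.498 ± 0.961 CPM and *Sox17* at 4.32 ± 0.451 CPM, which endothelium also expresses. *Epcam*, an epithelial adhesion molecule, read 1.098, 0.364, 2.78 and 0.487 CPM, highest in WT 3. The skeletal muscle list gave 30.4 ± 1.15 CPM for *Tnni2*, 10.1 ± 1.203 for *Tnnt3* and 7.19 ± 0.941 for *Actn3*, whereas *Myod1*, *Myf5* and *Myog*, the factors that define skeletal muscle, were at 0 in all 4. Of the neural crest list, *Ets1* and *Ednrb*, both shared with endothelium, stood at 62.9 ± 5.06 and 59.7 ± 7.76 CPM.

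**Figure D3:**
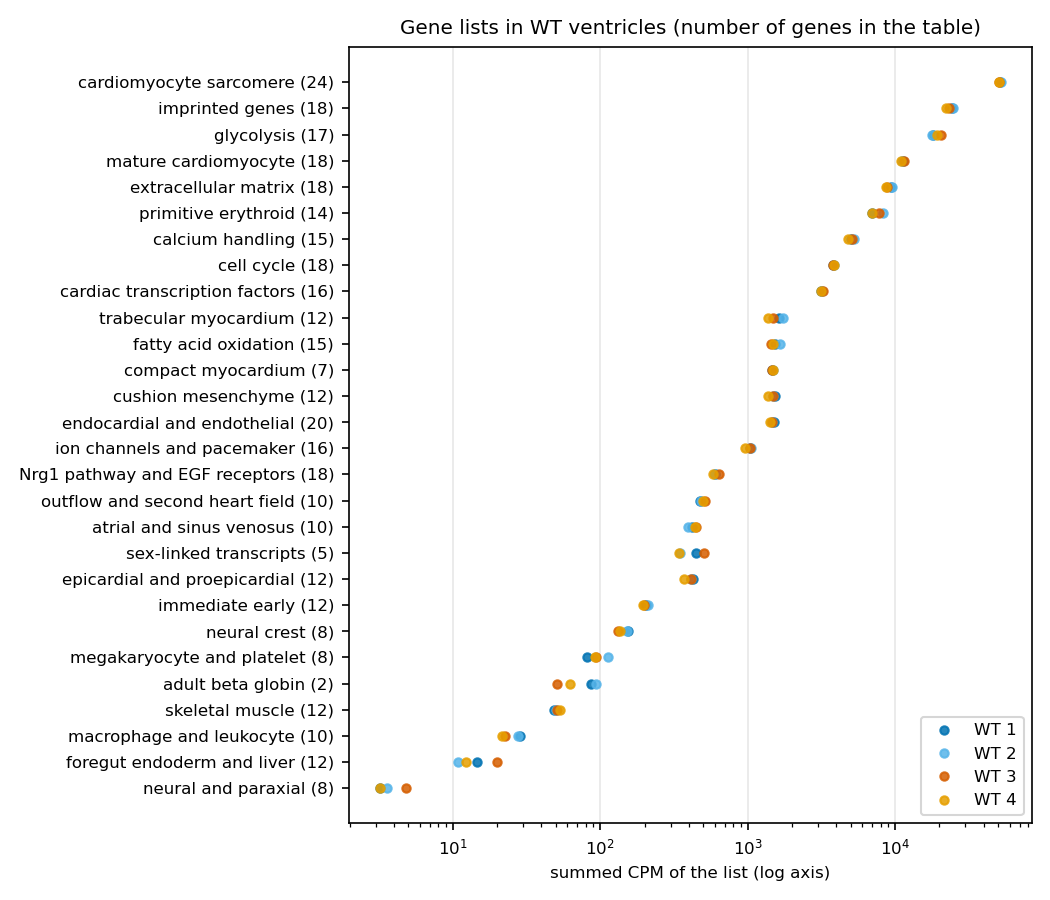
Summed CPM on a log axis of 28 gene lists in each of the 4 WT samples, with the number of listed genes in the table in brackets. Sarcomere genes sum to 50672 CPM or more and neural and paraxial genes to under 5 CPM, and most lists show the 4 samples on top of one another.

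The 4 samples were close to one another. The ratio of the highest to the lowest CPM had a median of 1.13 and a 90th percentile of 1.29 over the 9756 genes with a mean of at least 10 CPM, and the median biological coefficient of variation from edgeR was 0.0703. Of these genes 57, or 0.584%, exceeded 2-fold, and 225 exceeded 1.5-fold. Without WT 2 the number over 2-fold was 37. The genes with least spread among those at 100 CPM or more were *Ipo9*, *Rtn3*, *Gorasp2*, *Actc1* and *Ap2a2*, all within 1.02-fold. *Ipo9*, a nuclear import receptor, read 213, 212, 212 and 213 CPM.

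Most of the variable genes were copies of other genes. Of the 57, 27 were annotated pseudogenes, 15 were unnamed models or named copies and 15 were named genes. Among pseudogenes 22.9% of 118 exceeded 2-fold, against 0.252% of 9514 protein-coding genes. Of the 57, 44 shared more than 50% of their 60-base windows with another gene, and the median share was 81.4%. Over 210 other genes named here the median was 0, but the naming rule leaves out pseudogenes and unnamed models. The share over all 9756 genes was not computed, so these medians do not compare like sets. *Hmga1b* had the widest ratio among named genes at 13.6-fold, with 137, 12.8, 174 and 104 CPM, and shared 87.0% of its windows with *Hmga1*, which read 466, 616, 466 and 559 CPM. WT 2 was lowest for *Hmga1b* and highest for *Hmga1*. *Dynlt1b* read 15.5, 42.8, 27.1 and 21.2 CPM.

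**Figure D4:**
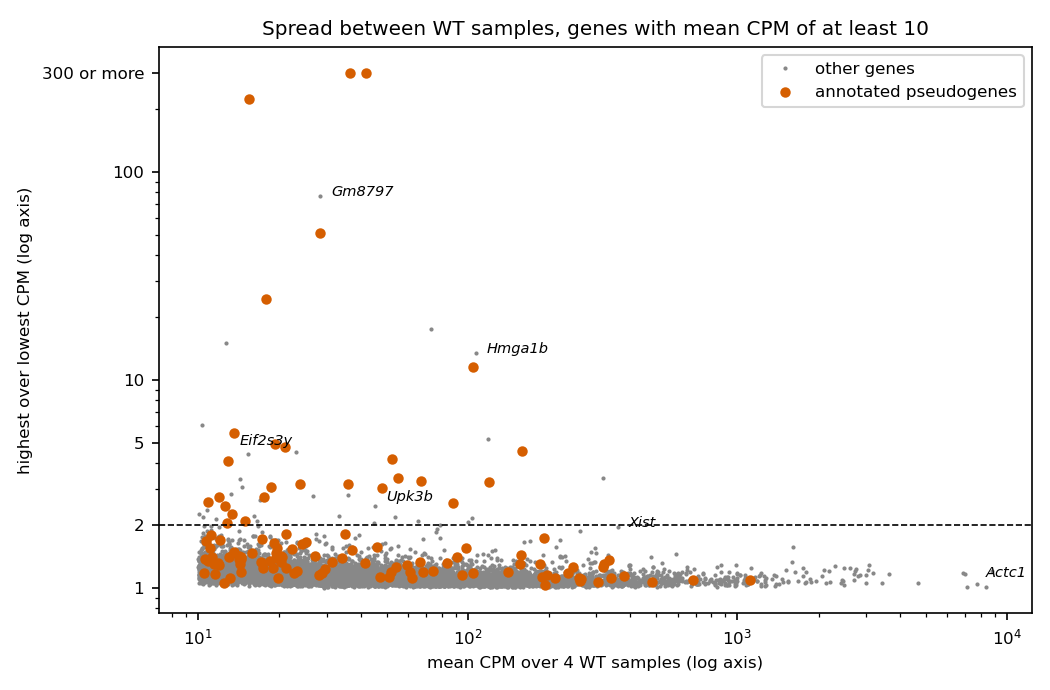
Ratio of the highest to the lowest CPM over the 4 WT samples against mean CPM, both on log axes, for the 9756 genes with a mean of at least 10 CPM, with ratios of 300 or more drawn at the top edge and pseudogenes in orange. The 57 genes over the dashed 2-fold line are mostly of low mean CPM, and 27 of them are pseudogenes.

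Genes of the sex chromosomes were among those that varied. *Eif2s3y*, a translation factor gene of the Y chromosome, read 25.9, 9.53, 13.5 and 42.9 CPM, a ratio of 4.50. *Ddx3y*, an RNA helicase gene also on the Y, read 18.2, 6.18, 9.53 and 27.3 CPM, a ratio of 4.41. *Xist*, the noncoding RNA that silences an X chromosome in female cells, read 388, 328, 477 and 243 CPM. RNA of both kinds was therefore present in every sample, WT 4 was highest for the Y genes and lowest for *Xist*, and WT 2 was lowest for the Y genes. The part of this in the spread of other genes was not tested.

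The other widely varying named genes included *Ulk4* (20.7, 19.7, 11.2 and 6.73 CPM), *Rgs5*, a regulator of G protein signaling found in pericytes (14.7, 9.75, 28.9 and 20.96 CPM), and *Vsnl1*, a calcium sensor of inflow muscle (16.4, 8.51, 22.4 and 20.3 CPM). *Hbb-bt* read 51.9, 51.7, 18.5 and 21.1 CPM, and it shares 57.6% of its windows with *Hbb-bs*, at 35.4, 42.3, 32.7 and 41.4 CPM. WT 2 held the lowest value of *Vsnl1* and *Rgs5*, and WT 3 that of *Hbb-bt*.

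Several list members are given here that were chosen after their values were seen. *Isl1*, a factor of heart progenitors, read 4.94, 2.98, 10.2 and 8.70 CPM. *Shox2*, a factor of the sinus venosus, read 4.94, 1.53, 8.02 and 6.62 CPM. WT 2 was lowest and WT 3 highest for these genes, but the inflow genes *Tbx18* (48.5, 43.4, 39.6 and 43.3 CPM) and *Angpt1* (110.1, 105, 104 and 106 CPM) had WT 3 lowest. *Tcf21*, an epicardial factor, read 21.2, 16.9, 13.8 and 11.98 CPM, and *Aldh1a2*, which makes retinoic acid in epicardium, 8.15, 10.2, 4.05 and 4.11 CPM. *Col1a1*, fibrillar collagen, read 105, 80.5, 68.6 and 54.2 CPM. Other members of the epicardial list ran otherwise, with *Krt8* at 82.2, 85.6, 112 and 94.8 CPM, highest in WT 3, and *Wt1* at 32.9, 31.9, 33.0 and 30.8 CPM. *Mb*, myoglobin, read 13.3, 16.5, 7.68 and 9.05 CPM, in the same order of samples as *Casq2* except at the low end. *Eno1* read 1518, 1238, 1721 and 1952 CPM and shares 69.5% of its windows with other genes.

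**Figure D5:**
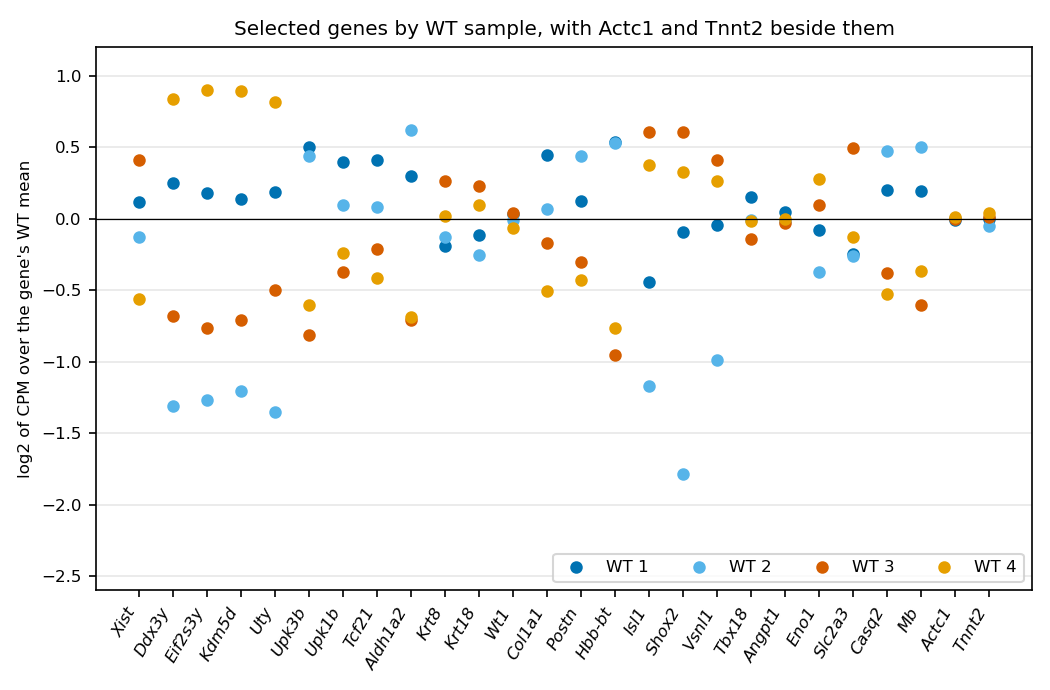
Log2 of each sample's CPM over the gene's mean over the 4 WT samples, for genes chosen after their values were seen, most of which differed between samples, with *Actc1* and *Tnnt2* for comparison. Y-linked genes have WT 4 highest and WT 2 lowest, *Upk3b*, *Tcf21* and *Aldh1a2* have WT 1 and WT 2 above the mean while *Krt8* and *Krt18* have them below it and *Wt1* shows no split, and *Actc1* and *Tnnt2* stay near 0.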

How the data were processed

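Per the labels, polyadenylated RNA of 4 WT ventricle samples was sequenced in single reads. The authors deposited expected counts per gene, estimated by RSEM 1.3.1 (the submitters' processing notes also name cutadapt), on GRCm38 with Ensembl 91, without scaling. The aligner, and whether strand was used, are not given in the sources used here. All count columns used matched a sample, and 0 did not. The 4 libraries differed by more than sampling noise in every pair (chi-square over degrees of freedom from 3.59 to 5.75) and each counted once.

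Counts were divided by the library total (CPM) or by union exon length from GENCODE M21 (TPM). The 105 rows of 53465 without a length stayed in totals. The tests were exact sign permutation over samples for paralog ratios and Dixon's test for single samples far from the others. Dispersion was estimated with edgeR 4.0.16 (TMM, rounded expected counts) in R 4.3.3, with DESeq2 1.42.0 as alternative, and other values with Python 3.11.15, pandas 2.3.3 and numpy 2.4.6, and scripts were tested on simulated data. Named genes were the 30 highest in mean CPM, the markers, in each of 28 lists the 4 highest members and those at 0, all paralogs, and the 10 widest and 5 narrowest ratios between samples, with pseudogenes and unnamed models counted only. Some genes that this rule names are not reported here. *Tcap*, *Sln*, *Slc4a1* and *Sparc*, and the genes said so in the text, were chosen after their values were seen. The members and lists were chosen with earlier results of these data known. Alternatives were TMM library sizes, totals without mitochondrial and hemoglobin genes, other cut-offs, other lengths, a pseudocount, and leaving out each sample.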

Additional observations from a re-analysis of the deposited data

Results flagged for a closer look

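In each of 78 reported values the 4 WT samples were searched for a sample far from the others (its distance from the next value, divided by the range of the 4, exceeded Dixon's critical value). Chance gives such a sample in about 1 in 20 groups, or 3.9 of 78, and 3 were found. *Atp5b*, a subunit of the ATP synthase, had WT 2 highest at 2883 CPM against 2626 to 2665 in the others, a gap of 0.846 of the range. *Mybpc3* had WT 2 highest at 2308 CPM against 2156 to 2178, a gap of 0.858. *Bmp10* had WT 4 lowest at 96.7 CPM against 119.7 to 122.5, a gap of 0.892.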

How the results depend on the processing

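No paired analysis was possible because the description covers 1 group and compares no groups. Of 28 list shares, TMM library sizes moved 0 beyond their spread between samples, leaving out mitochondrial and hemoglobin genes from the total 8, and levels per length 24. Of 41 leading paralog ratios a pseudocount moved 0. The coding transcript's length moved 25 and reversed 4, and no length moved 31 and reversed 3. Without mitochondrial and hemoglobin genes the share of the 100 and 1000 leading genes was 21.1% and 53.8%, that of the sarcomere list 5.32% and that of the endocardial list 0.152%. Ranking by level per length moved the shares of the 10, 100 and 1000 leading genes to 4.05%, 16.9% and 46.5%, and summing levels per length gave 5.26% for the sarcomere, 0.0928% for the endocardial and 3.01% for the erythroid list. The choice of length mattered most. With the coding transcript's length and with no length, the log2 ratio of *Myh6* to *Myh7* turned to -0.28 and -0.31, *Myl3* to *Myl4* to -0.66 and -0.67, and *Gja4* to *Gja5* to -0.61 and -1.73 (-0.034 to 0.12 with a sample left out, lowest without WT 4). *Ccnd2* to *Ccnd3* turned to -0.10 with the coding length. *Actc1* to *Acta2* moved to 2.02 and 1.56, and *Myl7* to *Myl2* to 0.56 and 0.26.

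Leaving out each sample gave 6.003% to 6.16% for the 10 leading genes, 2.78% to 2.94% for mitochondrial genes, and 0.01 to 0.10 for *Myh6* to *Myh7*. Genes over 2-fold between samples numbered 57, or 37 to 49 with a sample left out (37 without WT 2), 225 over 1.5-fold, and 800 among genes at 1 CPM or more, where low counts limit precision. The median coefficient of variation ranged from 0.0647 to 0.0751 and was 0.0802 with DESeq2.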
